A study of Mus musculus with 7 samples.

Results

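The genes described here are 38 genes of glycolysis and of the transcriptional response to low oxygen, measured in macrophages sorted from the mouse colon. They comprise 5 sugar and lactate transporters, 16 glycolytic enzymes, 4 enzymes of flux control and lactate metabolism, 4 oxygen-response factors and hydroxylases, and 9 further hypoxia target genes. They were chosen by symbol, with earlier results of these data known. A gene was measured where a probe set of the array was paired with that symbol alone, and the brightest such probe set was used. On this rule 35 of the 38 genes were measured, among 19938 genes in all. Gpi1, Gapdh and Eno1 had no probe set paired with their symbol alone and were not analysed here.

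Glycolysis converts glucose to pyruvate in the cytosol, and cells that run it fast reduce pyruvate to lactate and export it. The transcription factors HIF-1α and HIF-2α are marked for destruction by oxygen-dependent prolyl hydroxylases, and when spared they bind short motifs in the promoters of glucose transporters, glycolytic enzymes and stress genes. In macrophages HIF-1α and glycolysis are also raised by inflammatory stimuli, and interleukin-10 is known to restrain both. The series set mutants of the interleukin-10 pathway against controls, and the comparison here asks where these genes stood in each mutant.

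Total RNA of sorted cells was hybridised to 7 one-colour Affymetrix arrays, and values are on a log2 scale, so that a difference of 1 is 2-fold. All mice had a C57BL/6 background and were 6 weeks old, and all cells came from the lamina propria of the colon by flow sorting. One pair of arrays carried the sort label CX3CR1hi: 1 array of wild-type Cx3cr1gfp/+ mice (WT) and 1 of IL10-/- CX3CR1gfp/+ mice, which lack interleukin-10 (Il10_KO). The other 5 carried the sort label resident: 3 arrays of wild-type Cx3cr1gfp/+ mice and 2 of CX3CR1cre:IL10Raflox/flox mice, in which Cre from the Cx3cr1 locus deletes the interleukin-10 receptor alpha chain in Cx3cr1-expressing cells (Il10ra_mKO). The resident mutants and controls also differed at the Cx3cr1 locus, cre against gfp, with no Cre-only group, so the deletion and the Cx3cr1 allele cannot be told apart. Nothing in the labels ties the arrays of a group to separate mice, so the tests measure only the spread between these arrays, which may be technical. RNA kits differed between the first 2 samples and the other 5, which follows the sort label if samples are counted in series order, so no level is compared between the sort labels.

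The deleted gene checked the resident labels. Il10ra was 10.56, 10.76 and 11.12 in the WT resident arrays against 8.05 and 7.04 in the Il10ra_mKO arrays, a difference of -3.27. Il10 itself was 11.04 in WT and 10.75 in Il10_KO, but the position of its probes against the deletion is unknown, so this checks nothing and the direction rests on the label. Resident macrophage markers (14 of 14 listed genes measured) had a mean log2 value of 11.68 to 11.74 in the WT resident arrays, 11.47 in Il10ra_mKO array 1 and 11.79 in array 2. These means hid shifts in both directions, with 8 markers higher and 6 lower on average in the mutant. Both mutant arrays lay above all controls for 3 of these markers and below all controls for 4. Mertk and Fcgr1 differed by 0.95 and 0.61, and Cd163 and Mrc1 by -1.70 and -0.78. The Cd163 controls were spread, at 8.90, 8.11 and 6.64, so that WT array 3 stood near the mutant arrays at 6.32 and 6.04. Epithelial markers were also bright: all 14 were measured, with means of 10.52 to 10.89 in the WT resident arrays, 10.62 in Il10ra_mKO array 1 and 8.68 in array 2 (summed log2 levels of 15.06 to 15.39, 15.13 and 13.35). Single epithelial markers differed: in array 1, 5 of the 14 lay below all WT resident arrays, 8 within their range and 1, Krt20, above, and in array 2, 13 lay below. Both mutant arrays lay below all controls for 5 of the 14. In array 2 Fabp2 stood at 5.38 and Cdx2 at 5.86, where the median of all values over all arrays was 5.86. Monocyte markers (11 of 14 measured) had means of 7.52 to 7.79 in WT resident, 8.83 in array 1 and 8.22 in array 2, with summed log2 levels of 12.48 to 13.50, 13.71 and 13.17. The mean was carried by Ly6i, F10 and Hp, which differed by 4.75, 3.12 and 1.73, while Ccr2 differed by 0.10 and Fn1 by -1.46, and 7 markers were higher and 4 lower on average in the mutant. In sorted bulk RNA, more cells of a type and more RNA per cell cannot be told apart.

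In the resident cells without the interleukin-10 receptor, the glycolysis and hypoxia genes lay mostly above the controls. Of the 35 measured genes, 25 had a higher mean in Il10ra_mKO and 7 a lower one, where 9087 of all genes were higher and 8882 lower. The median difference was 0.29 against 0.00 over all genes. For 15 of the 35 (42.9%) both mutant arrays lay above all 3 controls, where 8.92% of all genes did so. Among these, 7 genes (20.0%) were also at least 2-fold higher in the mean, against 0.913% of all genes: the glucose transporters Slc2a1 and Slc2a6, the lactate exporter Slc16a3, the hexokinase Hk3, and the hypoxia targets Bnip3, Ero1l and Ddit4. Only 2 genes (5.71%), Slc16a1 and Epas1, had both mutant arrays below all controls, a share near the 8.50% of all genes. Slc16a1 alone (2.86%) was at least 2-fold lower, against 1.35% of all genes. The list was chosen with earlier results of these data known, so these shares describe it and are not an independent test.

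No single gene passed the test across all genes. With limma, 0 of the 35 had a Benjamini-Hochberg adjusted p under 0.05, and 1 gene of all 19938 did (0.00502%). The lowest adjusted p among them was 0.243, for Hk3. At an unadjusted p under 0.05, 13 were higher (37.1%, against 4.06% of all genes) and 1 was lower (2.86%, against 3.86%). With 2 arrays against 3, an exact permutation test cannot give a two-sided p below 0.1. The count at adjusted p under 0.05 became 1 with quantile normalization and 5 with each array centred on its median, when Slc2a1, Slc2a6, Slc16a3, Hk3 and Ddit4 passed. The 13 higher genes became 9 without WT resident array 1, 9 without array 2 and 11 without array 3. These fits had 2 residual degrees of freedom in place of 3, so part of the fall can be lost power. The median of 0.29 became 0.17 without Il10ra_mKO array 1 and 0.47 without Il10ra_mKO array 2.

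**Figure D1:**
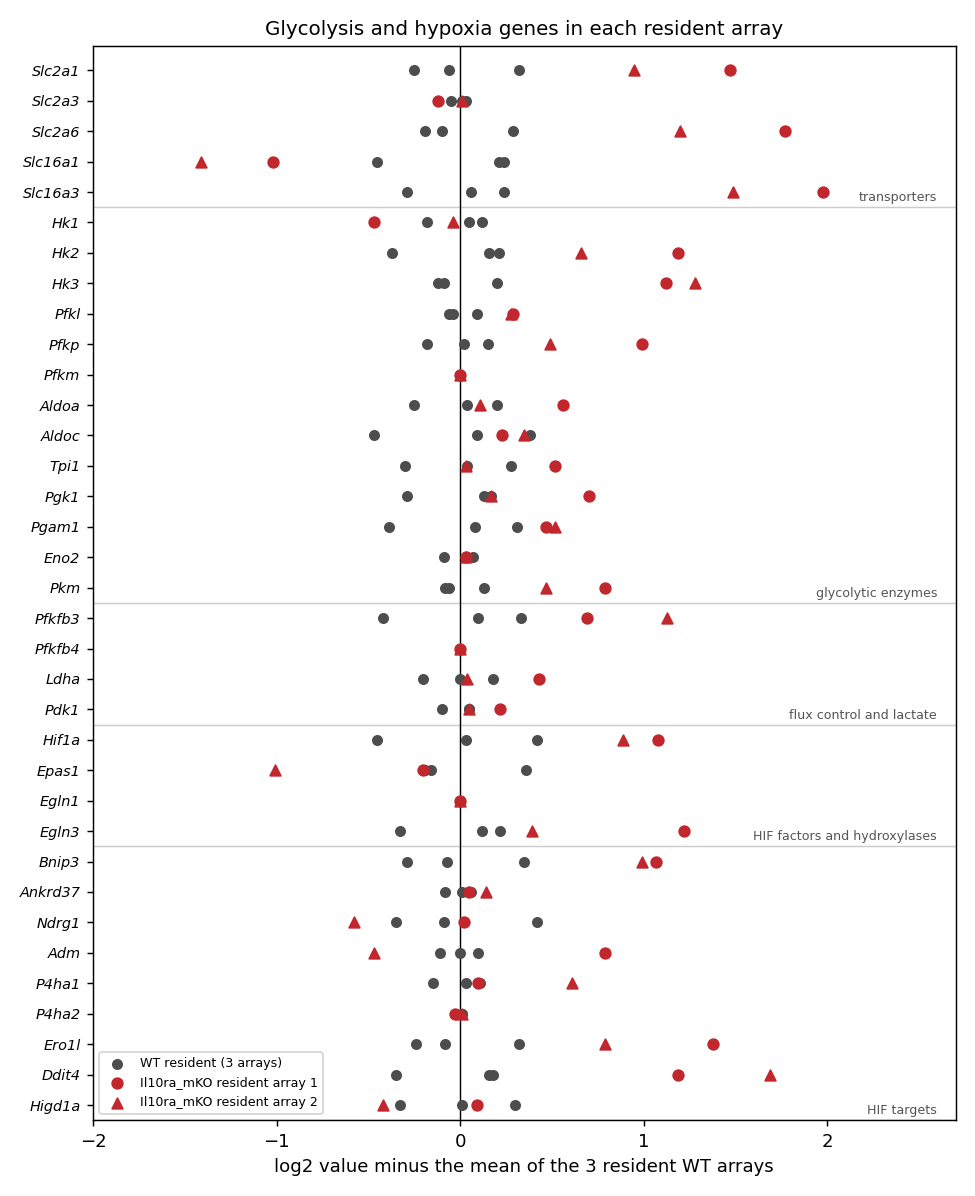
Each measured gene in the 5 resident arrays, as the log2 value minus the mean of the 3 WT resident arrays (grey points), with Il10ra_mKO array 1 as red circles and array 2 as red triangles. For 15 of the 35 genes both red symbols lie right of all grey points, and for 2 genes, Slc16a1 and Epas1, both lie left of them.

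The promoters of 5 of the 7 genes that were at least 2-fold higher are shown, those known as HIF targets, because HIF binds the core letters ACGTG or GCGTG. Each stretch is the 250 bases before the annotated start from RefSeq (GRCm38.p6), written 5′ to 3′ on the strand of the gene. Capitals mark ACGTG or GCGTG on either strand (read as CACGT or CACGC on the reverse), and overlapping matches are joined, as in CACGTG, the E-box, which holds ACGTG on both strands.
Slc2a1 promoter (chr4:119108495-119108744, plus strand): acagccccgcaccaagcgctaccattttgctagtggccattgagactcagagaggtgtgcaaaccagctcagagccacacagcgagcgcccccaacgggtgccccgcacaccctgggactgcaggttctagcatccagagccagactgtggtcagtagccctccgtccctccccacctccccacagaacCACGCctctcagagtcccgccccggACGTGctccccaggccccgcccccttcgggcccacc
Slc16a3 promoter (chr11:120948817-120949066, plus strand): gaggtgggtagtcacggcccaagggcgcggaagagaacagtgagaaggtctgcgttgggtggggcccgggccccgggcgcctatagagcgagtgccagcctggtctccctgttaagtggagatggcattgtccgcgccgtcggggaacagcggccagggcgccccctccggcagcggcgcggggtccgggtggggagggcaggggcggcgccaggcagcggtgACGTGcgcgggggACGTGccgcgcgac
Bnip3 promoter (chr7:138909507-138909756, minus strand): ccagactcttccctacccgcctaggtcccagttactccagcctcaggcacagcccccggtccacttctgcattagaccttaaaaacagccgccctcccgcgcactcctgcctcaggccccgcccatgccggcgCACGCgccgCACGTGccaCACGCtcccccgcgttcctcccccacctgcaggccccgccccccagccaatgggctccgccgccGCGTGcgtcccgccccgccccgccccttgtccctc
Ero1a promoter (chr14:45318573-45318822, minus strand): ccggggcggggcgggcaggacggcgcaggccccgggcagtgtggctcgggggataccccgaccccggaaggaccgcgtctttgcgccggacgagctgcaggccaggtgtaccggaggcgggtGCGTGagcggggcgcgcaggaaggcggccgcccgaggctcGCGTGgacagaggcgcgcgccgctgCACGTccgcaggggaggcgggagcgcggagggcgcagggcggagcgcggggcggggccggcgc
Ddit4 promoter (chr10:59951771-59952020, minus strand): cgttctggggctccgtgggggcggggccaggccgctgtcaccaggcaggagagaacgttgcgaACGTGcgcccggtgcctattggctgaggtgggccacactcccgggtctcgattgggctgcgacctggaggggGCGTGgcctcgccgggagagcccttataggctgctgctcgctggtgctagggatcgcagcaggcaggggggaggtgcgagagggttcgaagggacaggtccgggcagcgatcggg
A match is a description of letters and not a bound site. The Slc2a1 stretch held 2 matches, that of Slc16a3 held 2 within the last 27 bases before the start, that of Bnip3 held 5, that of Ero1a (the current symbol of Ero1l) held 3 and that of Ddit4 held 2. RefSeq promoters matched 32 of the 35 measured genes, with 43 promoters in all because some genes have several starts. The entries not found were Slc2a3, Ndrg1 and Epas1. Either motif was present in 36 of these 43 promoters (83.7%) and in 38.6% of the 32851 promoters in the RefSeq table. Known HIF targets were put on the gene list on purpose, so a higher share is partly built in. The RefSeq promoters were also not matched to these for base content, so the shares do not test control by HIF. ACGTG was present in 55.8% of the 43 against 16.6% of all, and GCGTG in 55.8% against 28.2%. CACGTG was present in 6 of the 43 (14%) against 6.02% of all. Counted by gene, all 15 genes with both mutant arrays above the controls had a match in at least 1 promoter, and so did 15 of the other 17 matched genes.

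The transporters had the largest median difference of the 5 groups of genes, at 1.21 in Il10ra_mKO, with 3 of 5 above all controls and 1 below. Over all genes 8.92% lay above all controls and 8.50% below. Slc16a3, which encodes the lactate exporter MCT4 of highly glycolytic cells, was 6.54, 6.89 and 7.07 in the WT resident arrays and 8.81 and 8.32 in Il10ra_mKO. The mutant arrays were each more than 1 log2 unit above the highest control, and the mean was 3.32-fold higher (difference 1.73 ± 0.24, SE; 95% interval 1.05 to 2.42; limma adjusted p = 0.282). Slc2a6, an intracellular glucose transporter of myeloid cells, was 7.20, 6.81 and 6.72 in WT and 8.68 and 8.11 in the mutant, with no overlap. Its difference was 1.49 ± 0.25 (adjusted p = 0.341). Slc2a1, the basal glucose importer GLUT1 and a classical HIF target, was 9.95, 10.14 and 10.52 in WT and 11.67 and 11.15 in the mutant. The mutant arrays again lay above all controls, by 1.21 ± 0.26 in the mean (adjusted p = 0.421).

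The other lactate carrier went the opposite way. Slc16a1, which encodes MCT1, a carrier that moves lactate in either direction and takes up butyrate in the colon epithelium, was 9.60, 10.29 and 10.26 in WT and 9.03 and 8.64 in the mutant. The lowest control lay above both mutant arrays, and the mean was 2.32-fold lower (difference -1.21 ± 0.29, adjusted p = 0.455). Against the WT mean, Slc16a1 stood at -1.02 in array 1, where 5 of 14 epithelial markers lay below all controls, and at -1.41 in array 2, where 13 did. Slc16a3 stood at 1.98 and 1.49, Slc2a6 at 1.77 and 1.20, and Slc2a1 at 1.47 and 0.95 in the same arrays. The part of the epithelial signal in these values was not tested. Slc2a3, the high-affinity glucose transporter GLUT3, was dim and flat, at 5.68 to 5.76 in WT and 5.61 and 5.74 in the mutant.

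Among the 13 measured glycolytic enzymes the median difference was 0.34, and 6 had both mutant arrays above all controls, none below. The shares over all genes were 8.92% above and 8.50% below, so none below among 13 genes is near the share of all genes. The first step, phosphorylation of glucose by hexokinase, held the largest difference. Hk3, the hexokinase of myeloid cells, was 8.26, 8.29 and 8.58 in WT and 9.50 and 9.66 in the mutant. The groups did not overlap, and the mean was 2.30-fold higher (difference 1.20 ± 0.13, 95% interval 0.83 to 1.58, adjusted p = 0.243). Hk2, the inducible hexokinase and a HIF target, was 8.74, 8.16 and 8.69 in WT and 9.72 and 9.19 in the mutant, without overlap (difference 0.93 ± 0.28, adjusted p = 0.547). Hk1, the housekeeping hexokinase, overlapped between groups at 11.72 to 12.02 in WT and 11.43 and 11.86 in the mutant, a difference of -0.25. The brightest Hk1 probe set had no RefSeq accession, and the other, at 8.62 to 8.71 in WT, differed by 0.03.

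Phosphofructokinase, the committed step, has 3 subunit genes, all measured. Pfkp, the platelet-type subunit, was 8.59, 8.92 and 8.79 in WT and 9.76 and 9.26 in the mutant, above all controls by 0.74 ± 0.20 in the mean (adjusted p = 0.507). Pfkl, the liver-type subunit, was 8.29, 8.44 and 8.31 in WT and 8.64 and 8.63 in the mutant. This difference of 0.28 ± 0.06 was small but without overlap (adjusted p = 0.424). Pfkm, the muscle-type subunit, had the deposited value 6.89 in all 5 resident arrays. Such ties were frequent in the resident arrays: 1124 of 35399 probe sets, 844 of the genes, had 1 value in all 5. The 3 tied genes among the glycolysis and hypoxia genes were Pfkm, Pfkfb4 and Egln1, and their difference of 0.00 reflects equal deposited values and does not show equal RNA.

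In the lower part of the pathway the differences ranged from 0.02 to 0.63. Pkm, the pyruvate kinase of macrophages that makes pyruvate and ATP, was 9.94, 10.15 and 9.96 in WT and 10.81 and 10.49 in the mutant. Both mutant arrays lay above the controls (difference 0.63 ± 0.14, adjusted p = 0.421), and the other Pkm probe set differed by 0.48. Pgam1, the phosphoglycerate mutase, was 9.49, 9.96 and 10.19 in WT and 10.35 and 10.40 in the mutant, without overlap and with a mean difference of 0.50 ± 0.24. The aldolase Aldoa, the isomerase Tpi1 and the ATP-forming kinase Pgk1 had higher means, by 0.34, 0.27 and 0.43, but array 2 lay within the WT range for Aldoa and Tpi1. For Pgk1, array 1 stood at 11.18 and array 2 at 10.65, level with the highest control at 10.65. Aldoc, the brain-type aldolase, ranged from 6.82 to 7.67 in WT and overlapped (difference 0.29). Eno2, the neuronal enolase, was dim, at 4.73 to 4.89 in WT and 4.85 in both mutant arrays.

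Of the 4 genes of flux control and lactate metabolism, 1 separated the groups, with both mutant arrays above all controls, where 8.92% of all genes did so. Pfkfb3, whose product makes the allosteric activator of phosphofructokinase, was 8.83, 8.31 and 9.06 in WT and 9.42 and 9.86 in the mutant. Both mutant arrays were above the controls, by 0.91 ± 0.29 in the mean (adjusted p = 0.579). Ldha, the lactate dehydrogenase subunit that favours lactate formation, was 11.34, 11.72 and 11.54 in WT and 11.97 and 11.58 in the mutant. Array 1 was high and array 2 lay within the control range, so the difference of 0.24 ± 0.18 did not separate the groups. Pdk1, a kinase that inhibits pyruvate dehydrogenase, was 7.09 to 7.24 in WT and 7.41 and 7.24 in the mutant (difference 0.14). Pfkfb4, a relative of Pfkfb3, was tied at 8.42.

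The 4 oxygen-response genes had differences in both directions. Hif1a, the inducible subunit of HIF-1, was 10.32, 10.80 and 11.19 in WT and 11.85 and 11.66 in the mutant. Both mutant arrays lay above the highest control, and the mean was 1.98-fold higher (difference 0.98 ± 0.30, adjusted p = 0.556). Epas1, which encodes HIF-2α, was 7.76, 8.28 and 7.73 in WT and 7.72 and 6.91 in the mutant. Array 1 lay just below the lowest control, so only array 2 was clearly low, and the difference was -0.61 ± 0.34 (-1.01 in array 2 alone). Egln3, a prolyl hydroxylase that HIF itself induces, was 6.34, 6.79 and 6.89 in WT and 7.89 and 7.06 in the mutant. Its difference of 0.81 ± 0.34 was 1.22 in array 1 and 0.39 in array 2. Egln1, the main oxygen-sensing prolyl hydroxylase, was tied at 7.99.

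The hypoxia targets outside glycolysis were split. Their median difference was 0.16, with 3 of 9 above all controls (against 8.92% of all genes), each at least 2-fold. None lay below all controls, which is near the 8.50% of all genes for so few genes. Ddit4, an inhibitor of the growth kinase mTORC1 that responds to hypoxia and other stresses, was 7.29, 7.82 and 7.80 in WT and 8.83 and 9.33 in the mutant. Both mutant arrays lay more than 1 log2 unit above the highest control, and the mean was 2.71-fold higher (difference 1.44 ± 0.26, adjusted p = 0.362). Ero1l, the oxidase that forms disulphide bonds in the endoplasmic reticulum, was 8.59, 8.75 and 9.15 in WT and 10.21 and 9.62 in the mutant, a difference of 1.08 ± 0.28 without overlap (adjusted p = 0.484). Bnip3, a mitophagy receptor, was 7.25, 7.47 and 7.89 in WT and 8.61 and 8.53 in the mutant, again without overlap (difference 1.04 ± 0.22, adjusted p = 0.414). Its dimmer probe set differed by 0.66.

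The remaining 6 targets did not separate the groups, and in several the 2 mutant arrays disagreed. Adm, the vasodilator peptide adrenomedullin, was 6.09 to 6.30 in WT, 6.99 in array 1 and 5.73 in array 2, above and below all controls. Ndrg1, a stress-responsive gene, was 8.93, 9.19 and 9.70 in WT, 9.30 in array 1 and 8.70 in array 2. P4ha1, a collagen prolyl hydroxylase subunit, was 9.26 to 9.52 in WT and stood higher in array 2 alone (9.51 and 10.02). Higd1a, a mitochondrial protein, overlapped at 6.85 to 7.48 in WT and 7.27 and 6.76 in the mutant. Ankrd37 (5.70 to 5.84 in WT, 5.83 and 5.92 in the mutant) and P4ha2, the second collagen hydroxylase subunit gene (4.62 to 4.65 in WT, 4.61 and 4.65), were dim and differed by 0.10 and -0.01.

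The 2 mutant arrays were not equally far from the controls. Measured against the WT mean, the median over the 35 genes was 0.47 in array 1 and 0.17 in array 2, where the controls themselves lay between -0.15 and 0.05. Against that mean, 10 genes were at least 2-fold above the WT mean in array 1 and 5 in array 2, with 4 in both. Of the 15 genes above all controls, 11 were further from the WT mean in array 1. The median over all genes was 0.00 in both arrays. The counts per array were not made over all genes, so they are not shown to be particular to the 35. The monocyte marker mean was also higher in array 1 than in array 2, and the neutrophil marker mean was 5.51 to 5.55 in WT, 6.07 in array 1 and 5.72 in array 2. Most neutrophil markers were dim. The epithelial, fibroblast and muscle, and endothelium and glia means were higher in array 1 too. The reverse held for resident macrophages, T cells, B and plasma cells (7.62 in array 1 and 8.12 in array 2) and dendritic cells (6.85 and 7.15). The part of these cells in the differences was not tested. The submitters' sample numbers place array 1 next to WT arrays 1 and 2 and array 2 next to WT array 3, and what a run of numbers stands for is not given. Within these runs Slc16a3 differed by 2.09 and 1.25, Slc2a6 by 1.67 and 1.39, Slc2a1 by 1.63 and 0.63, Hk3 by 1.22 and 1.08, and Ddit4 by 1.27 and 1.53. Slc16a1 differed by -0.91 and -1.62, and Ndrg1 changed sign, with a higher value in the first run (by 0.24) and a lower one in the second.

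In the CX3CR1hi cells without interleukin-10 the same genes were set against their control with 1 array in each group, and thus no replicate check. The median difference was 0.10 against 0.03 over all genes, with 24 genes higher and 10 lower. All genes also leaned upward, with 11001 higher and 8489 lower. Of the 35, 0 were at least 2-fold higher and 0 at least 2-fold lower, where 0.692% and 1.22% of all genes were, shares at which fewer than 1 of 35 genes would be counted. Hk3 was 8.18 in WT and 9.16 in Il10_KO, a difference of 0.98, the largest upward and 1.97-fold, just under the limit. Slc16a3 was 6.72 and 7.67 (difference 0.95, 1.93-fold), and Slc2a6 was 7.32 and 8.04 (difference 0.72). The downward differences were led by Slc16a1, at 10.27 and 9.42 (difference -0.85), and Epas1, at 9.14 and 8.43 (difference -0.71). The epithelial marker mean was 11.25 in WT and 10.67 in Il10_KO beside these values. The fit called 7.90% of all genes in this contrast and 0 of the 35, but 1346 of its 1576 calls were genes whose resident WT arrays lay within 0.05 of each other and only 60 were at least 2-fold, so no p is given for it.

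P4ha1 differed by 0.62, Bnip3 by 0.59, Aldoc by 0.56, Slc2a1 by 0.54, Hk2 by 0.51 and Pfkfb3 by 0.42 in Il10_KO, all upward. Pkm, with 9.99 and 10.28, differed by 0.29. Several stress and oxygen genes that separated the resident groups differed little here: Ddit4 was 7.10 in WT and 7.34 in Il10_KO, Ero1l was 9.48 and 9.68, and Hif1a was 11.17 and 11.41. Egln3 was lower in the mutant, at 7.48 and 7.11 (difference -0.37). Of the 15 genes above all controls in Il10ra_mKO, 14 were also higher in Il10_KO, the exception being Egln3. This is not particular to these genes, since 90.4% of all 1779 genes above all controls in Il10ra_mKO were higher in Il10_KO as well. Both Slc16a1 and Epas1 were lower in Il10_KO, as were 86.1% of the 1694 genes below all controls.

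**Figure D2:**
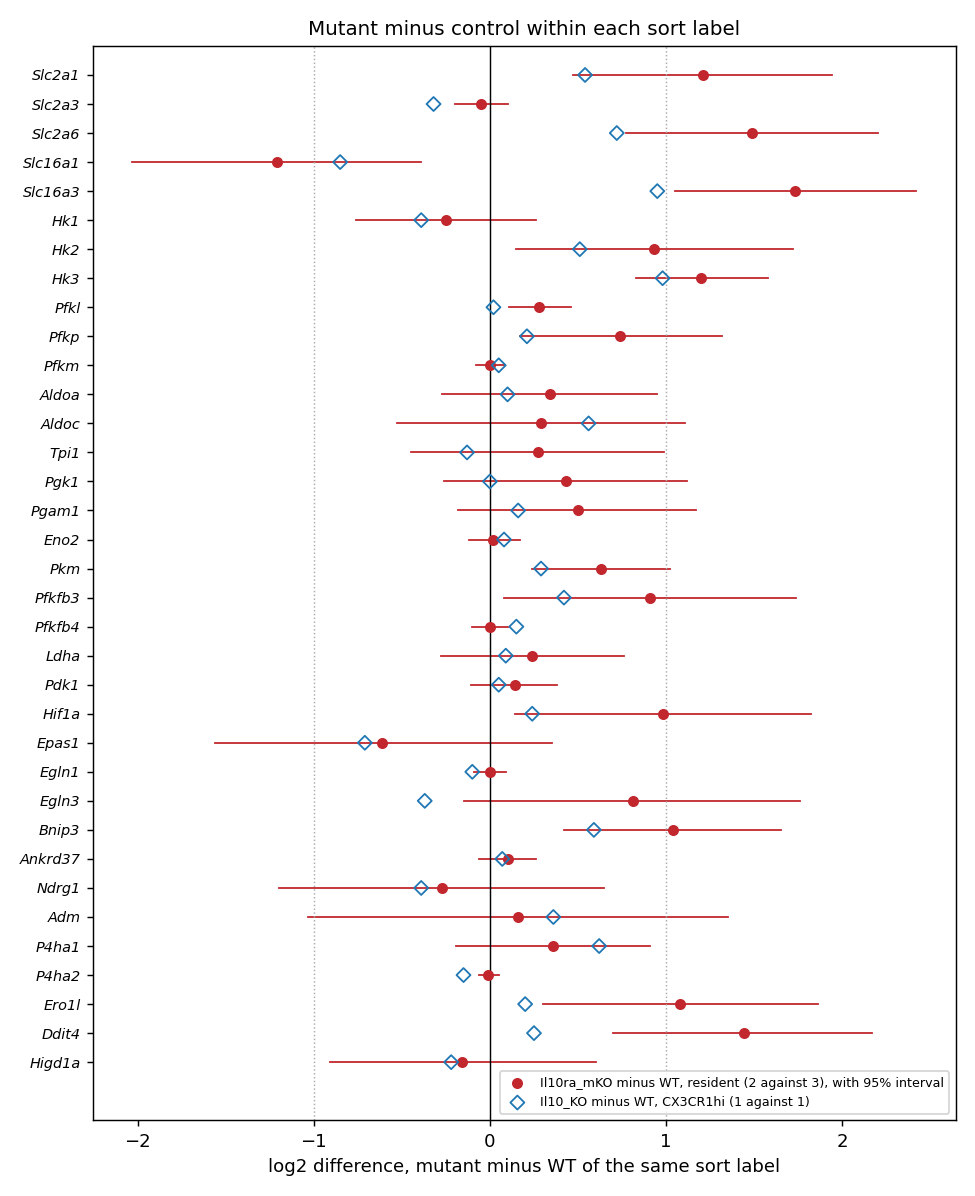
The difference between mutant and WT of the same sort label, on the log2 scale, for each measured gene. Red points are Il10ra_mKO minus WT in resident cells with the 95% interval of the limma fit, open blue diamonds are Il10_KO minus WT from 1 array each, and no diamond lies beyond the dotted lines at 2-fold, whereas Slc16a3 lies at 1.73 and Slc16a1 at -1.21 in Il10ra_mKO.

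Whether the 2 mutant effects differed was tested in the same fit, in which the effects share no control array. The CX3CR1hi arrays have no replicate, so this test takes their spread wholly from the resident arrays, and no p or interval is given for single genes. By limma 0 of the 35 had an adjusted p under 0.05, where 4.70% of all genes did, and 891 of those 937 genes were again nearly tied in the WT resident arrays. At an unadjusted p under 0.05 there was 1 (2.86%), P4ha2, which differed by 0.14 at dim values, against 15.8% of all genes. As values, the effect was larger in Il10ra_mKO than in Il10_KO by 1.19 for Ddit4, 1.18 for Egln3, 0.78 for Slc16a3 and 0.67 for Slc2a1. Neither a difference between the mutants nor equal effects are shown for these genes.

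The neighbouring pathways give the setting of these values. Among 84 measured genes of 5 such lists, the median difference in Il10ra_mKO was -0.03, with 12 above all controls (14.3%, against 8.92% of all genes) and 16 below (19.0%, against 8.50%). By limma 0 of the 84 had an adjusted p under 0.05 in Il10ra_mKO, and at an unadjusted p under 0.05 there were 7 higher (8.33%, against 4.06%) and 4 lower (4.76%, near the 3.86% of all genes). Of 26 other measured hypoxia targets, 7 lay above all controls (26.9%) and 0 below, with a median of 0.12. Vegfa, the angiogenic growth factor, was 8.20, 7.86 and 9.63 in WT and 10.62 and 10.38 in the mutant. Both mutant arrays lay above the controls, WT array 3 stood far above the other controls, and the difference was 1.94 ± 0.63 (adjusted p = 0.585). Vegfa was 9.98 and 10.81 in the CX3CR1hi pair. Bhlhe40, a transcriptional repressor, was 8.35, 8.37 and 9.67 in WT and 9.75 and 9.77 in the mutant, so that WT array 3 nearly reached the mutants (difference 0.97 ± 0.50).

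The oxidative end of glucose metabolism had mostly lower values. In Il10ra_mKO 8882 of all genes had a lower mean and 9087 a higher one. Of 25 measured genes of pyruvate entry and the TCA cycle, 22 had a lower mean in Il10ra_mKO and 2 a higher one, with a median of -0.21. For 11 of them (44.0%, against 8.50% of all genes) both mutant arrays lay below all controls and for 0 above (against 8.92%), and 3 (12.0%, against 3.86%), all lower, had an unadjusted p under 0.05. Suclg2, the GTP-forming succinyl-CoA ligase subunit, was 9.32, 9.59 and 9.61 in WT and 8.77 and 8.09 in the mutant (difference -1.08 ± 0.25, adjusted p = 0.440). Pcx, the pyruvate carboxylase that feeds oxaloacetate into the cycle, was 6.64, 7.20 and 6.81 in WT and 6.08 and 6.09 in the mutant (difference -0.79 ± 0.19, adjusted p = 0.457). In both genes no mutant array reached the lowest control. In the CX3CR1hi pair 20 of the 25 were lower and 4 higher, with a median of -0.20, where 8489 of all genes were lower and 11001 higher. The list's median was -0.09 in array 1 and -0.29 in array 2, in which the epithelial marker means were 10.62 and 8.68, and the part of the epithelial signal was not tested.

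Other glycolytic and gluconeogenic genes, mostly isoforms of other tissues, had a median of -0.05 over 19 genes. Of these, 1 lay above all controls (5.26%, against 8.92% of all genes) and 4 below (21.1%, against 8.50%). Pck1, the first committed enzyme of gluconeogenesis, was 7.59, 7.87 and 8.14 in WT and 5.97 and 5.81 in the mutant, 3.95-fold lower in the mean and without overlap (difference -1.98 ± 0.19, adjusted p = 0.208). In the CX3CR1hi pair Pck1 was 8.49 in WT and 6.58 in Il10_KO, a difference of -1.91, so both mutants had low values. The epithelial marker Fabp2 was also low in both mutants, at 9.48 to 9.62 in WT resident, 8.12 in array 1 and 5.38 in array 2, and at 10.15 and 8.92 in the CX3CR1hi pair. The part of the epithelial signal in Pck1 was not tested. Fbp2, the muscle fructose bisphosphatase, was 7.36 to 7.70 in WT and 7.36 and 6.20 in the mutant (difference -0.73 ± 0.40). Among 7 other HIF regulators the median was 0.02. Vhl, the ubiquitin ligase subunit that recognises hydroxylated HIF, was 7.77, 7.86 and 8.12 in WT and 8.41 in both mutant arrays (difference 0.49 ± 0.13), and Cited2, a competitor of HIF for its coactivator, was 9.94 to 10.02 in WT and 10.02 and 10.73 in the mutant. The pentose phosphate pathway, which makes NADPH and ribose from glucose 6-phosphate, had a median of 0.11 over 7 genes. Of these, 3 lay above all controls (42.9%, against 8.92% of all genes) and 0 below (against 8.50%). H6pd, the first enzyme of that pathway in the endoplasmic reticulum, differed by 0.36, and Pgd, its cytosolic NADPH-forming dehydrogenase, by 0.21.

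**Figure D3:**
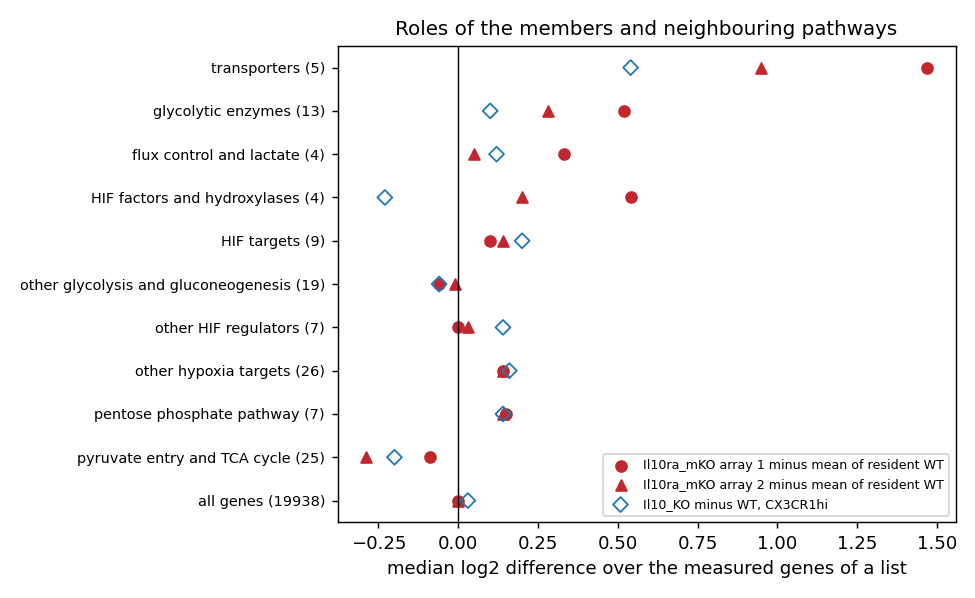
Median log2 difference over the measured genes of each list (number in brackets): Il10ra_mKO array 1 (red circles) and array 2 (red triangles) minus the mean of the 3 WT resident arrays, and Il10_KO minus WT in the CX3CR1hi pair (open diamonds). The transporters lie furthest right, at 1.47, 0.95 and 0.54, and the TCA cycle list lies left of 0 in all 3.

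**Figure D4:**
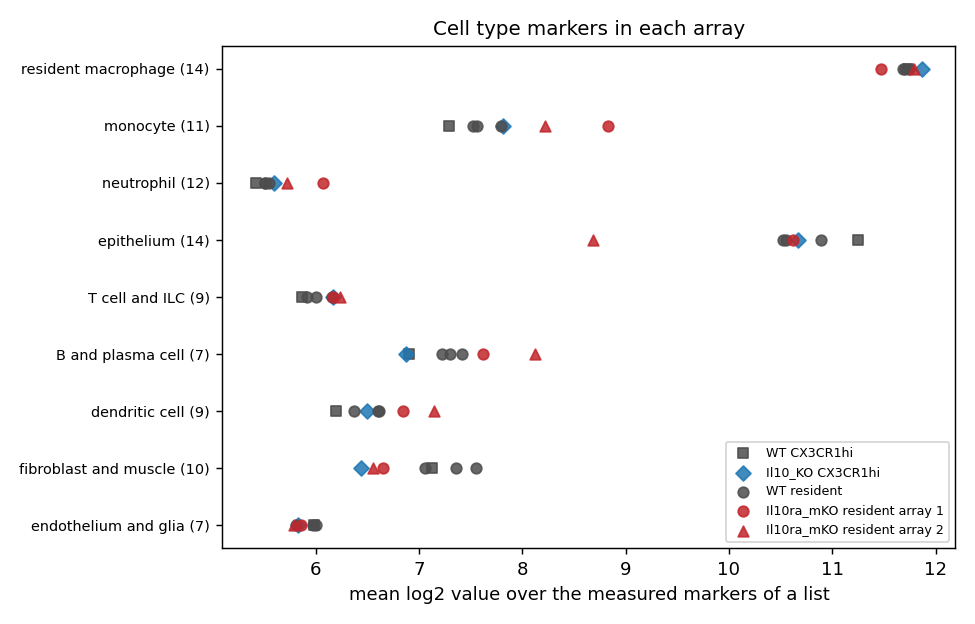
Mean log2 value over the measured marker genes of each cell type in each of the 7 arrays, by group. The epithelial mean of 8.68 in Il10ra_mKO array 2 stands below the other 4 resident arrays, and the monocyte means of 8.83 and 8.22 in the 2 Il10ra_mKO arrays stand above those of the 3 WT resident arrays. Of the 11 monocyte markers, 5 lay above all WT resident arrays in array 1, 4 within their range and 2 below. In array 2 these counts were 3, 6 and 2. Arrays of different sort labels are not compared.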

How the data were processed

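RNA of 7 sorted samples was measured on Affymetrix arrays. The authors deposited log2 values, and the submitters' processing notes name RMA and Partek. No source used here gives a version, a genome build or the arrays that were normalised jointly. Of 35399 probe sets, 21789 were paired with 1 gene symbol, 1621 with several and 11989 with none, and the brightest single-symbol probe set stood for each of 19938 genes. Symbols were updated through RefSeq (GRCm38.p6), used for names and promoters only. One limma fit (version 3.58.1, R 4.3.3) with 4 group means over all 7 arrays gave each contrast, with a mean-variance trend, 3 residual degrees of freedom and Benjamini-Hochberg adjustment over all genes. The script was tested on simulated data.

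The genes and lists were chosen with earlier results of these data known. The text names all listed genes, Vegfa, and the 2 genes with the largest absolute difference of each neighbouring pathway. Alternatives were a brightness filter (above 5.86 in at least 2 arrays), resident arrays alone, other moderation, the mean of a gene's probe sets, quantile normalization, median centring, a block for runs of sample numbers and leaving out each resident array. Leaving out genes tied in all resident arrays was chosen after seeing the data. The number of arrays limits the precision.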

Additional observations from a re-analysis of the deposited data

How the results depend on the processing

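Across 14 alternatives, 471 of 483 recomputed differences between Il10ra_mKO and WT kept their direction and side of the threshold. This count overstates stability. The brightness filter, resident arrays alone, other moderation and leaving out tied genes change only the spread or the genes tested, so no direction could turn there. No gene passed the threshold in the fit reported, so most kept their side by again not passing. Leaving out 1 resident array at a time moved the median over the 35 genes from 0.29 to between 0.17 and 0.47. It moved the count of genes above all controls from 15 to between 16 and 21. Those also at least 2-fold higher moved from 7 to between 5 and 10. The count of genes below all controls moved from 2 to between 2 and 5, and those also at least 2-fold lower from 1 to between 1 and 2. With an array left out, the counts above and below all controls can only stay or rise, so their rise is no check of stability. Leaving out 1 WT resident array moved the count at unadjusted p under 0.05 and higher from 13 to between 9 and 11. The direction turned for 6 genes when an array was left out. Their differences then ranged from -0.46 to 0.79 for Adm, -0.57 to 0.03 for Ndrg1, -0.41 to 0.10 for Higd1a, -0.12 to 0.01 for Slc2a3, -0.02 to 0.06 for Eno2 and -0.03 to 0.01 for P4ha2. The fits with 1 mutant array assume that it varies like the other groups. Median centring left 1 gene below all controls. The count at adjusted p under 0.05 was 0 in the fit reported, 1 with quantile normalization and 5 with median centring, and 0 under every other alternative. The lowest adjusted p among the genes ranged from 0.00361 with median centring to 0.667 without WT resident array 2. Over all genes the count was 1 in the fit reported, 138 with quantile normalization, 421 with median centring, 12 with the brightness filter, 8 without tied genes, and 266 and 267 without Il10ra_mKO array 1 and array 2. Both scalings make equal deposited values unequal, and the cause of the larger counts was not tested. With a block for the runs of sample numbers the median was 0.30, with 12 genes higher at unadjusted p under 0.05.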
